A study of Mus musculus with 6 samples.

Results

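The Nr4a, Klf and Egr early genes are 10 transcription factor genes that were taken by symbol from the 6 deposited count tables: *Nr4a1*, *Nr4a2*, *Nr4a3*, *Klf2*, *Klf4*, *Klf6*, *Klf10*, *Egr1*, *Egr2* and *Egr3*. All 10 were found in each table, out of 30828 to 32285 gene rows per table. The rule takes them by name and uses no measured value, but the set was proposed with earlier results of these data known. The 6 libraries were made by droplet scRNA-Seq, 1 for each condition and each with GFP+ cells pooled from 3 mice. Of these, 4 held GFP+ lung cells of Pdgfra-GFP reporter mice, in which EGFP is driven from the *Pdgfra* locus, digested with enzymes and sorted 14 days after the last dose by oropharyngeal aspiration. The single-dose pair received PBS or bleomycin, an agent that injures the lung and leads to fibrosis. For this bleomycin dose the labels give 2 U/kg in their protocol but 4 U/kg as the treatment, and the study's text states 2 U/kg. The repetitive pair received 3 weekly doses of PBS or of bleomycin, the first and second at 1 U/kg and the last at 0.5 U/kg. The last pair were organoids, in which tomato+ alveolar type 2 epithelial cells (AEC2s) of tamoxifen-treated SpcCreER × Rosa-td26 mice, whose Rosa allele carries a tdTomato reporter, were grown in Matrigel with GFP+ fibroblasts (FBs) of PBS donors (normal organoid) or of donors given bleomycin at 2 U/kg (fibrogenic organoid). In the organoid pair the 3 mice of each library were the FB donors, and the number of AEC2 donors was not known here. As GFP marks cells by *Pdgfra*, other stromal cells of the lung are seen only as far as they passed the sort.

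All 10 genes belong to the early response of cells: their transcription starts within minutes of a stimulus from factors that are already present, and most of their transcripts are short-lived. Nr4a proteins are orphan nuclear receptors, Klf proteins bind GC-rich and CACCC sequences, and Egr proteins are zinc finger factors that bind GC-rich sites and are held back by the Nab corepressors. In mesenchymal cells, *Egr1* is known for its part in collagen transcription and *Nr4a1* for restraint of transforming growth factor signalling, and *Klf2* and *Klf4* are known for quiescence of the vessel wall. Early genes are also known to respond to the digestion of tissue, and each condition was digested and sorted as 1 pool, so that the condition and the handling of its pool cannot be told apart.

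The promoters of 7 of the 10 genes were present in the RefSeq table for GRCm38.p6, in 11 windows, of which 5 are starts of *Egr2* that partly overlap, and *Klf10*, *Egr1* and *Egr3* had none there. The 250 bases before the transcription start were searched on both strands for sequences through which early genes are classically switched on. The core of the cyclic AMP response element (CRE), TGACG, was present in 8 of the 11 windows, from 6 of the 7 genes, against 17.8% of all 32851 promoter windows. *Klf6* was the gene with no copy in any window. The full CRE, TGACGTCA, was in 0 of the 11 windows, against 1.55% of all windows. The site of the Egr proteins themselves, GCGNGGGCG, was in 4 of the 11 windows (1 each of *Nr4a1*, *Nr4a2*, *Klf2* and *Klf4*), against 4.70% of all windows. The CArG box of serum response factor was in 4 windows, all of *Egr2* and so of 1 gene, against 1.47%, and the Nr4a site AAAGGTCA was in 0, against 1.34%. Overlapping windows of *Egr2* shared the same copies of TGACG and of the CArG box, so they do not count as separate promoters. These promoters were rich in GC, at 54% to 80% against a median of 52.4% over all windows, which by itself raises the number of matches to GC-rich letters. The promoters of the 3 *Nr4a* genes and of *Klf4* are shown because the *Nr4a* genes each held 4 copies of TGACG, which 0.137% of all windows reach, and because *Klf4* had more UMIs per total in MatrixFBs than in LipoFBs in all 4 lung libraries, as described below. They lie at chr15:101266596-101266845 (plus strand, *Nr4a1*), chr2:57124004-57124253 (minus strand, *Nr4a2*), chr4:48045055-48045304 (plus strand, *Nr4a3*) and chr4:55532476-55532725 (minus strand, *Klf4*). Capitals mark TGACG, in either orientation, and the Egr site, and each sequence ends at the base before the start.
Nr4a1: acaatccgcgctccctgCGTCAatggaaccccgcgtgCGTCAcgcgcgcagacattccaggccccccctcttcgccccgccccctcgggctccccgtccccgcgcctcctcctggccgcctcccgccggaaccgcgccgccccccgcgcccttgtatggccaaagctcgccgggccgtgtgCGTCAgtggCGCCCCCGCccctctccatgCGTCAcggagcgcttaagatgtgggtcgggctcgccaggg
Nr4a2: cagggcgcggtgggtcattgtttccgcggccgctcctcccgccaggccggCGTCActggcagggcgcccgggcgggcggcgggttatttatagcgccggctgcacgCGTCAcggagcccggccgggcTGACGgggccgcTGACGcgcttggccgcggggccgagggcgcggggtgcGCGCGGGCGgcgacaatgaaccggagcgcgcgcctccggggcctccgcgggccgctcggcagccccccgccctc
Nr4a3: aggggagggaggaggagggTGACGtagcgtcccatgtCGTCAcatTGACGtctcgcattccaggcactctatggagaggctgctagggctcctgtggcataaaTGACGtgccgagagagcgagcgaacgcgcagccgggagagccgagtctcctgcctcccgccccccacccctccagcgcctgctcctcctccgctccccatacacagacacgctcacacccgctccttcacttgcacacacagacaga
Klf4: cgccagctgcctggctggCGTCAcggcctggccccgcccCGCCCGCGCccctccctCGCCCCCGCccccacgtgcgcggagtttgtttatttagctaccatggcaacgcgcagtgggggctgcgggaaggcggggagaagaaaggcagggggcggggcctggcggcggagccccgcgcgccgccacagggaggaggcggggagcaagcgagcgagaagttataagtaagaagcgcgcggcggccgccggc
In *Nr4a1* the copies of TGACG began 233, 213, 69 and 40 bases before the start and the Egr site lay 60 bases before it, between the last pair of them. A match describes the letters only, since no binding was measured here.

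FBs were taken as barcodes with at least 3 of 8 FB markers (among them *Pdgfra*, *Col1a2* and *Fbn1*) and few markers of any other lineage. The gate held 873 of 1060 barcodes after single-dose PBS, 809 of 1015 after single-dose bleomycin, 5205 of 6139 after repetitive PBS and 7918 of 10737 after repetitive bleomycin. All 8 FB markers were present in the gated FBs of every library, and their summed level rose from 4017 to 7333 CPM (UMIs of a gene or list scaled to the same total for every group) with single-dose bleomycin and from 3471 to 6742 CPM with repetitive bleomycin. Of the gate lists of other lineages, that of 7 myeloid markers had the highest sum in each lung FB gate, between 19.4 and 69.8 CPM. Lists of alveolar cell states, which were not used in the lineage gate, were higher there: 8 AEC2 markers summed to 116 and 104 CPM in the single-dose pair and to 46.2 and 103 CPM in the repetitive pair, 8 AEC1 markers to 53.8 and 128 CPM and to 93.7 and 111 CPM, and 8 markers of transitional epithelium, among them *Krt8* and *Cdkn1a*, to 112 and 338 CPM and to 162 and 309 CPM. The part of such transcripts in the values of the members was not tested. Libraries held 7201081 to 238618743 UMIs. The median barcode of the FB gate had 6968 and 11832 UMIs in the single-dose pair, and 10724 and 3573 UMIs in the repetitive pair. Barcodes under 2000 UMIs made up 43.7% of the repetitive bleomycin library and 33.5% of the fibrogenic organoid library, against 5.31% after repetitive PBS and 15.9% in the normal organoid. Pairs of libraries shared 0 to 30 barcodes. Levels are CPM from the summed UMIs of the barcodes in a group, and intervals are exact 95% intervals that cover counting error alone. There is no test between conditions, because the error between mice cannot be estimated from 1 library each. In such sums, fewer cells that express a gene and less RNA of it per cell cannot be told apart.

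Together the 10 genes took 0.218% of FB UMIs after single-dose PBS and 0.104% after bleomycin. In the repetitive pair they took 0.398% and 0.194%. The summed level was therefore lower after bleomycin in both pairs and in each family. *Nr4a* genes summed to 430.2 CPM and 194 CPM in the single-dose pair, and to 1439 and 594 CPM in the repetitive pair. *Klf* genes summed to 805 and 362 CPM, and to 1005 and 612 CPM. *Egr* genes summed to 949 and 486 CPM, and to 1539 and 732 CPM.

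After a single dose, 6 of the 10 genes were at least 2-fold lower in bleomycin FBs than in PBS FBs and 0 were at least 2-fold higher, where among 7905 genes with a mean of at least 10 CPM 4.06% were at least 2-fold lower and 5.97% at least 2-fold higher. The median log2 ratio of the 10 genes was −1.03, and that of all genes tested was 0.05. After repetitive dosing all 10 genes had a log2 ratio below 0, 4 of them were at least 2-fold lower, and 0 were at least 2-fold higher. There the background was 2.4% lower and 5.17% higher among 8781 genes, of which 39.9% lay below 0. The median log2 ratios were −0.93 for the 10 genes and 0.08 for all genes. The number past 2-fold in the single-dose FBs rested on values near the limit, since *Klf4*, *Egr1* and *Klf6* lay at log2 ratios of −1.02, −1.04 and −1.06. When each barcode was given equal weight in place of each UMI, 3 genes were at least 2-fold lower after the single dose, against 3.61% of all genes under that weighting, and with barcodes thinned to 2000 UMIs 3 were, against 4.66%.

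**Figure D1:**
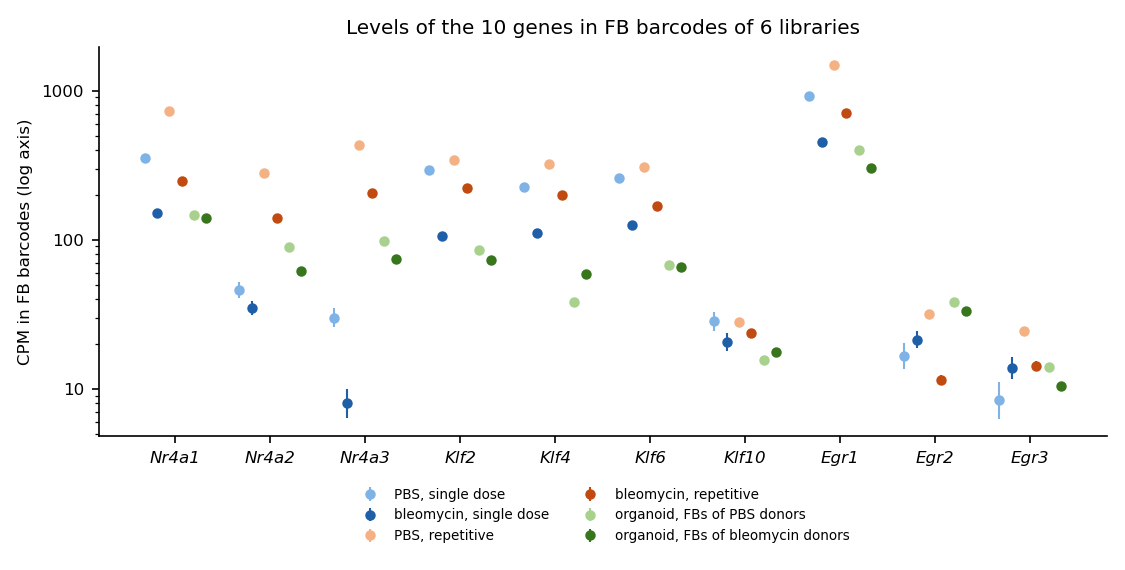
Levels of the 10 genes in FB barcodes of the 6 libraries, in CPM on a log axis, with exact 95% Poisson intervals as bars (many are smaller than the point). In the lung pairs the bleomycin point lies below the PBS point for all genes except *Egr2* and *Egr3* after the single dose, and *Nr4a3* and *Nr4a2* differ most between the PBS libraries.

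*Nr4a1*, the best known orphan receptor of the family, was at 354 CPM in single-dose PBS FBs and at 151 CPM in bleomycin FBs, and at 729 and 248 CPM in the repetitive pair. Its log2 ratio was −1.23 (−1.33 to −1.14) after the single dose and −1.55 (−1.58 to −1.53) after repetitive dosing, the lowest of the 10 genes in the latter. *Nr4a3* was at 30.0 and 8.03 CPM after the single dose, a log2 ratio of −1.90 (−2.29 to −1.52) that was the lowest in that pair. In the repetitive pair *Nr4a3* was at 432 and 205 CPM, with a log2 ratio of −1.08 (−1.11 to −1.04). *Nr4a2*, which is known for its role in dopamine neurons, was at 46.0 and 34.9 CPM after the single dose, with a log2 ratio of −0.40 (−0.63 to −0.17). After repetitive dosing it was at 278 and 141 CPM, with a log2 ratio of −0.98 (−1.02 to −0.95).

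*Klf2*, a factor induced by flow in endothelium, was at 292 and 105 CPM in PBS and bleomycin FBs after the single dose and at 345 and 222 CPM after repetitive dosing. Its log2 ratios were −1.47 (−1.58 to −1.36) and −0.64 (−0.67 to −0.61). *Klf4*, a reprogramming factor that also governs the state of smooth muscle, was at 224 and 111 CPM, and at 323 and 199 CPM. *Klf6* was at 261 and 125 CPM, and at 309 and 167 CPM. Each of these 3 genes was lower in the bleomycin library of both pairs. In the repetitive pair the log2 ratio was −0.70 (−0.73 to −0.66) for *Klf4* and −0.89 (−0.92 to −0.85) for *Klf6*. *Klf10*, which is induced by transforming growth factor, was the member nearest to its PBS level in the repetitive pair, at 27.9 and 23.7 CPM with a log2 ratio of −0.23 (−0.34 to −0.13). After the single dose it was at 28.3 and 20.6 CPM, with a log2 ratio of −0.46 (−0.76 to −0.16).

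*Egr1* was at 924 CPM in single-dose PBS FBs and at 450.4 CPM in bleomycin FBs, and at 1483 and 706 CPM in the repetitive pair. Its log2 ratios, −1.04 (−1.09 to −0.98) and −1.07 (−1.09 to −1.05), were the closest to each other of any member. *Egr2* and *Egr3*, which share the DNA-binding domain of *Egr1*, went in opposite directions in the dosing schemes. *Egr2* was at 16.5 and 21.3 CPM after the single dose, a log2 ratio of 0.37 (0.02 to 0.72), and at 31.6 and 11.4 CPM after repetitive dosing, a log2 ratio of −1.47 (−1.60 to −1.34). *Egr3* was at 8.44 and 13.9 CPM after the single dose, a log2 ratio of 0.72 (0.25 to 1.21), and at 24.3 and 14.3 CPM after repetitive dosing, a log2 ratio of −0.77 (−0.89 to −0.65). In the MatrixFBs described below both had ratios below 0 after the single dose too, at −0.49 and −1.33, on few UMIs. The difference between the schemes was not tested, and the single-dose values rest on 51 to 223 UMIs per gene and library.

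**Figure D2:**
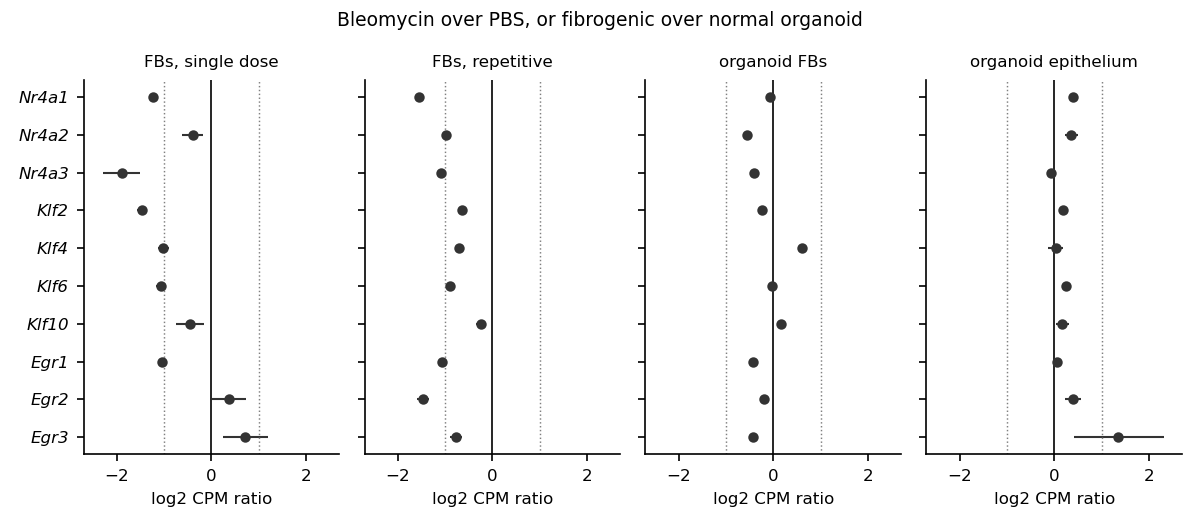
Log2 CPM ratios of the 10 genes in 4 comparisons, with exact 95% conditional intervals as bars and dotted lines at a 2-fold difference. Values lie mostly below 0 in lung FBs, near 0 in organoid FBs, and at or slightly above 0 in organoid epithelium, where only *Egr3* passes 2-fold.

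The PBS libraries also differed from each other. *Nr4a3* was 3.85 (3.64 to 4.07) higher on the log2 scale in FBs after repetitive PBS than after single-dose PBS, *Nr4a2* 2.60 (2.42 to 2.77), *Egr3* 1.53 (1.12 to 1.96) and *Nr4a1* 1.04 (0.98 to 1.10). These were the 4 genes at least 2-fold higher, against 25.9% of 7907 genes, and 0 of the 10 were at least 2-fold lower, against 5.5%. *Klf2*, *Klf6* and *Klf10* differed by log2 ratios of 0.24, 0.25 and −0.02. Dosing, library and the gene rows of the count tables differed between the schemes and cannot be told apart, and levels are therefore compared below within a pair.

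Other genes were described alongside. Of 29 other early genes, among them the AP-1 genes *Fos* and *Jun*, the phosphatase *Dusp1* and the RNA-binding *Zfp36*, 25 reached a mean of 10 CPM in the single-dose FBs and 14 of them were at least 2-fold lower after bleomycin, against 4.06% of all genes. The median log2 ratio of the 25 was −1.09. In the repetitive pair 9 of 24 were at least 2-fold lower, against 2.4% of all genes, 23 of 24 had a ratio below 0, against 39.9%, and the median was −0.86. The lowest gene in both pairs was *Atf3*, a stress-induced factor, at 270 and 57.7 CPM and at 884 and 232 CPM, with log2 ratios of −2.23 (−2.36 to −2.09) and −1.93 (−1.96 to −1.90). The highest was *Dusp5* after the single dose, at 3.97 and 20.3 CPM with a log2 ratio of 2.35 (1.74 to 3.03), and *Socs3* after repetitive dosing, at 136 and 141 CPM with a ratio of 0.05 (0.01 to 0.10). The median of this list was thus like that of the 10 genes in each pair. The list too was chosen with earlier results of these data known, so the likeness is no separate support for the values of the members. The study itself names *Fos*, *Jun*, *Dusp1* and *Atf3* among genes that set apart some of its clusters of PBS lung. It also names the members *Nr4a2* and *Klf4*, as stress response genes, for a cluster that it counts among the LipoFBs of PBS lung.

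Lists of related factors showed other values. Of 9 other *Klf* genes, 5 were tested after the single dose and 1 was at least 2-fold lower, against 4.06% of all genes. After repetitive dosing 6 were tested with 0 past 2-fold in either direction, against 2.4% lower and 5.17% higher. The medians of these *Klf* genes were −0.67 and −0.11. *Klf15*, a factor known from glucocorticoid responses, was the lowest in both pairs, at 62.4 and 14.1 CPM and at 23.4 and 12.6 CPM, with log2 ratios of −2.15 (−2.44 to −1.87) and −0.89 (−1.02 to −0.76). *Klf3* was the highest after the single dose, with a ratio of 0.16 (−0.08 to 0.40), and *Klf7* after repetitive dosing, with 0.43 (0.38 to 0.48). A list of 10 regulators and partners of *Egr1*, such as *Srf*, the ternary complex factors and the Nab corepressors, had medians of 0.03 over 9 tested genes and 0.06 over 7, near those of all genes. Among them the ternary complex factor *Elk3* was the highest in both pairs, at 9.10 and 44.2 CPM after the single dose and at 4.96 and 29.8 CPM after repetitive dosing, and the only one past 2-fold. Its log2 ratios were 2.28 (1.87 to 2.71) and 2.59 (2.41 to 2.77), where 5.97% and 5.17% of all genes were at least 2-fold higher. The lowest of the partners were *Srf*, at −0.59 (−0.86 to −0.32), and *Crem*, at −0.59 (−0.67 to −0.52). Of 10 heat shock genes, which mark protein stress, 3 were at least 2-fold lower after the single dose and 1 after repetitive dosing, against 4.06% and 2.4% of all genes. Their medians were −0.03 and 0.13. The lowest were *Hspa1a* (−2.19) and *Hspb1* (−1.32), and the highest *Hspe1* (0.35) and *Hspa1b* (0.66), in that order of pairs. Handling stress was not tested beyond these values.

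FB types were then parted by markers. LipoFBs carry *Tcf21*, *Npnt* and *Plin2*, MatrixFBs carry *Pi16*, *Col14a1* and *Ly6a*, and MyoFBs carry *Cthrc1* and *Postn*. The rule that parted them was chosen after seeing that 3 of the 8 MatrixFB markers were present in most FBs of each lung library. *Ly6a* was also present in 53.0% of FBs after single-dose bleomycin, against 22.3% after PBS. *Col14a1* was present in 54.8% after repetitive bleomycin, against 34.8% after PBS. It gave 679 LipoFBs and 93 MatrixFBs after single-dose PBS, 366 and 160 after bleomycin, 4109 and 579 after repetitive PBS, and 2967 and 1969 after repetitive bleomycin. MyoFBs numbered 82 and 207 in the bleomycin libraries. *Pi16* was at 1430 CPM in MatrixFBs and 10.1 CPM in LipoFBs of the single-dose PBS library, and *Tcf21* at 177 and 717 CPM. Both are markers of the rule, so their difference follows from it and is no check of it. Not every marker parted the types: *Mfap5*, on the MatrixFB list, was at 1180 CPM in MatrixFBs and 1276 CPM in LipoFBs after single-dose bleomycin.

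*Klf4* had the highest ratio of MatrixFBs over LipoFBs among the members in 3 of the 4 lung libraries, and the second highest in the single-dose PBS library. It was at 896 CPM in MatrixFBs and 118 CPM in LipoFBs after single-dose PBS, a log2 ratio of 2.93 (2.75 to 3.10). After single-dose bleomycin it was at 416 and 39.6 CPM, a log2 ratio of 3.40 (3.15 to 3.65). In the repetitive pair it was at 900.5 and 228 CPM after PBS, and at 405 and 136 CPM after bleomycin, with log2 ratios of 1.98 (1.93 to 2.03) and 1.58 (1.52 to 1.64). MatrixFBs thus had more *Klf4* than LipoFBs in all 4 libraries. *Klf2* was also higher in MatrixFBs in all 4, by log2 ratios of 0.73, 1.99, 0.89 and 0.36 in the same order. *Egr3*, at few UMIs, was at 27.8 CPM in MatrixFBs (16 UMIs) and 3.58 CPM in LipoFBs (17 UMIs) after single-dose PBS, a log2 ratio of 2.96 (1.88 to 4.03), and had ratios of 0.36 to 1.02 in the other libraries. Between these types the members at least 2-fold higher in MatrixFBs were 4, 3, 2 and 1 in the 4 libraries, against 9.42%, 6.48%, 7.72% and 5.31% of genes.

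*Nr4a2* was lower in MatrixFBs than in LipoFBs after single-dose PBS (26.0 and 47.7 CPM, log2 ratio −0.87, −1.74 to −0.12), after repetitive PBS (164 and 279 CPM, −0.77, −0.88 to −0.67) and after repetitive bleomycin (33.1 and 178 CPM, −2.43, −2.59 to −2.27). After single-dose bleomycin its ratio was −0.13 (−0.77 to 0.47), which its counts do not part from 0. *Nr4a3* had a log2 ratio of 0.72 (0.03 to 1.36) after single-dose PBS, of 0.93 (−0.16 to 1.95) after single-dose bleomycin on 13 and 25 UMIs, and of −0.73 and −1.72 in the repetitive pair. *Nr4a2* and *Nr4a3* were the 2 members at least 2-fold lower in MatrixFBs after repetitive bleomycin, against 7.15% of genes. *Nr4a1* had log2 ratios of 1.21 and 0.98 in the single-dose pair, of 0.19 (0.15 to 0.24) after repetitive PBS, and of −0.54 (−0.61 to −0.47) after repetitive bleomycin.

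Within LipoFBs, 6 members were at least 2-fold lower after single-dose bleomycin, against 3.21% of genes, and 2 after repetitive bleomycin, against 2.13%. There the medians of the 10 genes were −1.18 and −0.79. Within MatrixFBs, 4 were at least 2-fold lower after the single dose, against 5.29%, and 8 after repetitive dosing, against 1.55%, with medians of −0.86 and −1.31. So with this rule, chosen after seeing the data, the medians lay below 0 inside LipoFBs and inside MatrixFBs, as in all FBs. In the LipoFBs of the rule first set the median after repetitive dosing was −0.12, with 4 of the 10 genes above 0, 1 of them at least 2-fold higher (6.82% of all genes), and 2 at least 2-fold lower (2.9%), and in the FBs between the sets of that rule it was −0.32, with 3 above 0. Of all genes, 44.3% and 41.8% lay below 0 in these groups. After the single dose the medians of the same groups were −0.87 and −0.65, with 3 of the 10 genes above 0 in each, where 45.8% and 47.8% of all genes lay below 0. In each, 2 genes were at least 2-fold higher, against 12.1% and 10.3% of all genes, and 5 and 2 were at least 2-fold lower, against 7.44% and 7.29%. In these LipoFBs of the first rule 8 and 9 members reached the 10 CPM of the background genes, in the order single dose and repetitive dosing. *Klf2* in LipoFBs was at 265 and 65.3 CPM after the single dose, a log2 ratio of −2.02 (−2.20 to −1.84), and in MatrixFBs at 439 and 259 CPM, a ratio of −0.76, with an interval that ended at −0.52. In the repetitive pair *Nr4a2* in MatrixFBs was at 164 and 33.1 CPM, −2.31 (−2.49 to −2.12), and in LipoFBs at 279 and 178 CPM, −0.65 (−0.70 to −0.60). Among these 4 comparisons, only in single-dose LipoFBs was a member at least 2-fold higher after bleomycin: *Egr3*, at 3.58 and 8.65 CPM from 17 and 40 UMIs. Its mean was under the 10 CPM of the background genes, of which 5.46% were higher, and of the 9 members that reached it 0 were. The FB types were not tested against each other in this respect. The median MatrixFB barcode held 8700 UMIs after repetitive PBS and 3065 after bleomycin, against 10848 and 9209 for LipoFBs. MatrixFBs were 579 of 5205 FBs after repetitive PBS and 1969 of 7918 after bleomycin. In all FBs the 8 LipoFB markers summed to 4540 and 2648 CPM in the single-dose pair, and to 9813 and 6603 CPM in the repetitive pair. Which barcodes enter a type may thus differ with the condition, and its part in these values was not tested.

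**Figure D3:**
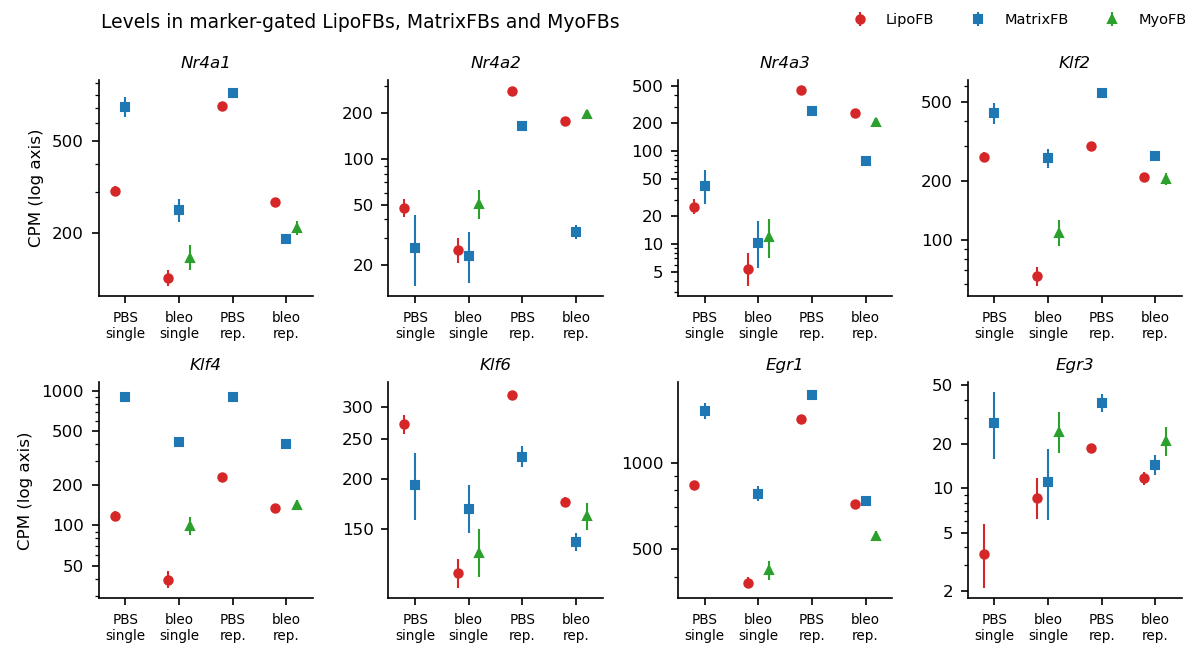
Levels of 8 of the genes in LipoFBs, MatrixFBs and MyoFBs of the 4 lung libraries, in CPM on log axes that differ between panels, with exact 95% Poisson intervals as bars; MyoFBs are shown for the bleomycin libraries only. MatrixFBs lie above LipoFBs for *Klf4* and *Klf2* in all 4 libraries and below them for *Nr4a3* and *Klf6* in the repetitive pair.

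In MyoFBs of the single-dose bleomycin library, all 10 members were above their level in LipoFBs of the same library, where 50.3% of all genes were below it. Of the 10, 4 were at least 2-fold higher, against 4.39% of genes. The 4 were *Egr3* (24.3 and 8.65 CPM), *Klf4* (99.6 and 39.6 CPM), *Nr4a3* (11.8 and 5.40 CPM, a mean below that of the background genes) and *Nr4a2* (50.4 and 25.1 CPM). In the repetitive bleomycin library 5 members were above and 5 below the LipoFB level, where 47.6% of all genes were below it. There *Klf10* alone was at least 2-fold higher, at 38.9 and 19.1 CPM with a log2 ratio of 1.02 (0.75 to 1.28), against 4.17% of genes. *Nr4a2*, *Klf4*, *Klf10*, *Egr2* and *Egr3* were the 5 above the LipoFB level after repetitive bleomycin. As all 10 were above it after the single dose, the overlap of the libraries is no separate result. *Nr4a2*, *Klf10* and *Egr3* had intervals above 0 in both libraries, and the share of all genes that did so is not given here. *Klf10* was higher by 0.96 (0.38 to 1.54) after the single dose, and *Egr3* by 1.49 and 0.84 in the 2 libraries. The median MyoFB barcode was deeper, with 18611 and 15884 UMIs against 12452.5 and 9209 UMIs for LipoFBs.

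Levels of the members also varied among the FBs of a library. FB barcodes were thinned to 2000 UMIs, which left out 35, 22, 79 and 2694 barcodes of the 4 lung libraries, and were put in 3 parts of equal size by their UMIs of the 29 other early genes, none of which is a member. A thinned barcode held on average 4.26 UMIs of the 10 members after single-dose PBS, 2.34 after bleomycin, 7.28 after repetitive PBS and 3.51 after repetitive bleomycin. In the highest part the summed members were 6.87, 7.01, 11.7 and 9.94 times the level of the lowest part, in that order of libraries. Cells rich in other early transcripts were therefore rich in the members too, in each library. That list was chosen with earlier results of these data known, so this is no separate support. FB types were not held apart in the parts, and no fold of all other genes is given beside these values. Where the lowest part gave a fold, it was largest for *Nr4a3* after repetitive PBS, 32.5-fold from 21.7 to 703 CPM, and *Egr1* there went from 159 to 2449 CPM. *Klf6* had a smaller range, from 154 to 463 CPM in that library, and *Klf10* went from 14.3 to 34.5 CPM there and from 14.6 to 28.1 CPM after repetitive bleomycin. After single-dose PBS *Klf10* was at 32.1 CPM in the lowest part and 19.7 CPM in the highest, with overlapping counting intervals. In the lowest part *Egr1* was at 139 and 122 CPM in the single-dose pair and at 159 and 90.4 CPM in the repetitive pair, and in the highest part at 1729 and 958 CPM, and at 2449 and 1415 CPM. The parts were ranked within each library and are not matched between conditions, since the median barcode of the highest part held 58 and 26 UMIs of the other early genes in the single-dose pair and 72 and 38 in the repetitive pair. In the lowest part of the single-dose pair the intervals of *Egr1* overlapped, and with barcodes thinned to 1000 UMIs it was at 148 and 178 CPM there. At the fixed depth of 2000 UMIs the median log2 ratio of the 10 genes was −0.75 after the single dose and −1.02 after repetitive dosing.

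**Figure D4:**
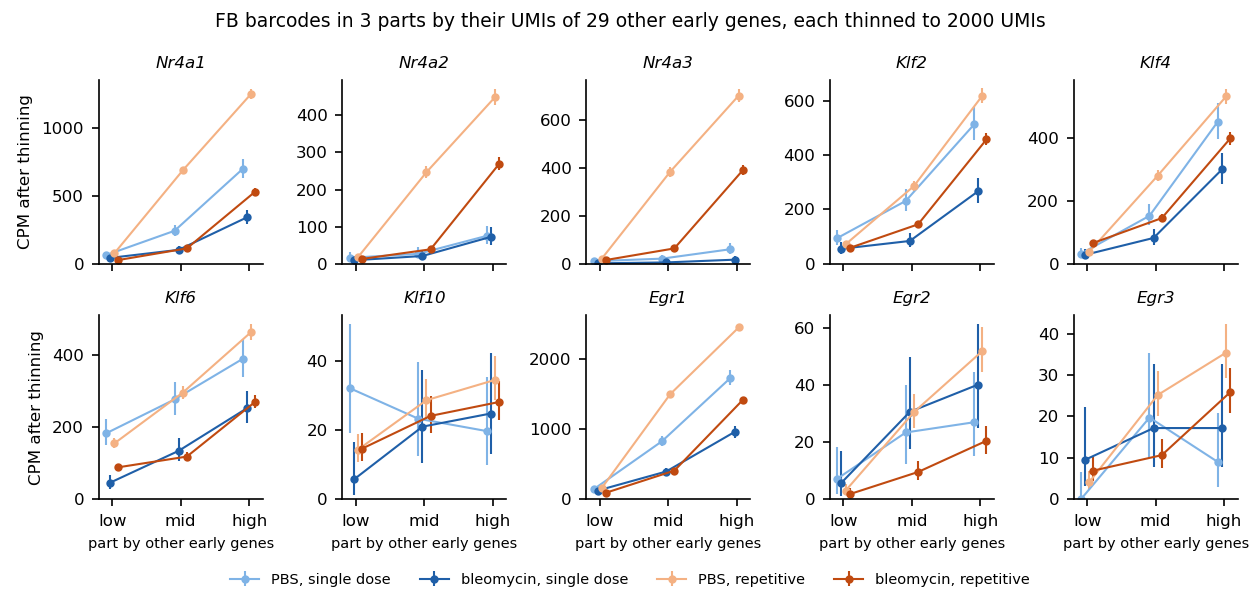
Levels of the 10 genes in FB barcodes thinned to 2000 UMIs, in 3 parts of equal size ranked by 29 other early genes, in CPM on linear axes that start at 0 and differ between panels, with exact 95% Poisson intervals as bars. Most genes rise from the low to the high part in all 4 lung libraries, *Nr4a1* from 77.2 to 1256 CPM after repetitive PBS, and *Klf10* rises less, from 14.3 to 34.5 CPM there, and does not rise after single-dose PBS.

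A few barcodes of other lineages passed the GFP sort. In the repetitive PBS library, 58 barcodes carried endothelial markers, 101 T cell markers and 82 myeloid markers. *Klf2* and *Klf4* were at 1449 and 1061.5 CPM in endothelial barcodes against 345 and 323 CPM in FBs, with log2 ratios of 2.07 (1.94 to 2.20) and 1.72 (1.56 to 1.86). *Nr4a2* and *Nr4a3* were at 8.49 and 14.2 CPM in endothelial barcodes, from 3 and 5 UMIs, against 278 and 432 CPM in FBs. The families thus differed between these lineages, *Klf2* and *Klf4* being higher in endothelium and *Nr4a2* and *Nr4a3* in FBs. In all, 4 members were at least 2-fold higher in endothelial barcodes than in FBs, against 22.3% of genes, and 5 at least 2-fold lower, against 15.9%. In T cell barcodes 8 members were at least 2-fold lower than in FBs, against 26.1% of genes, and 0 at least 2-fold higher, against 27.1%, with *Egr1* at 51.3 CPM, while *Klf2*, which keeps T cells quiescent, was at 317 CPM with a log2 ratio of −0.12 (−0.37 to 0.12). Myeloid barcodes had *Egr2* at 105 CPM, a log2 ratio of 1.73 (1.34 to 2.10) over FBs, and *Klf10* at the same level, with 1.91 (1.52 to 2.28). These were the 2 members at least 2-fold higher in myeloid barcodes, against 23.2% of genes. *Nr4a2*, *Nr4a3*, *Egr1* and *Egr3* were the 4 at least 2-fold lower there, against 24.5%, and the median of the 10 genes was −0.46. The repetitive bleomycin library held 63 T cell, 78 B cell and 108 myeloid barcodes. In its B cells 8 of the 10 members lay below their FB level, where 56.3% of all genes did, and the median was −2.42. In its T cells 7 members were at least 2-fold lower than in its FBs, against 29.3%, and *Klf2* was higher, at 501 and 222 CPM, against 19.8% of genes. In its myeloid barcodes *Egr2* and *Klf10* were again the 2 at least 2-fold higher, against 16.9%, *Egr1* alone was at least 2-fold lower, against 24.9%, and the median was 0.01. Between the libraries, bleomycin over PBS, the median of the 10 genes was 0.57 in T cells, with 6 above 0, and −0.55 in myeloid barcodes, with 8 below 0, where 57.4% and 57.8% of all genes lay below 0. Many of the T cell values rest on under 40 UMIs.

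The organoid pair asked whether FBs of bleomycin donors leave a mark on the epithelium grown with them. The epithelial gate held 1838 barcodes of the normal and 1836 of the fibrogenic organoid, with *Sftpc*, the surfactant gene of AEC2s, at 68796 and 62086.5 CPM. Of the 10 genes, 9 were slightly higher with fibrogenic FBs, 1 was at least 2-fold higher and 0 at least 2-fold lower, where 0.249% and 0.186% of 8048 genes were. The gene past 2-fold, *Egr3*, lay below the mean of 10 CPM that defines those genes, and of the 8 members that reached it 0 passed 2-fold. The median log2 ratio was 0.22, against 0.03 for all genes, of which 39.9% lay below 0. *Nr4a1* was at 70.4 and 93.0 CPM, a log2 ratio of 0.40 (0.35 to 0.46), *Egr2* at 7.58 and 10.0 CPM, 0.40 (0.24 to 0.57), and *Nr4a2* at 11.3 and 14.5 CPM, 0.36 (0.22 to 0.50). *Klf6* was at 177 and 210.2 CPM, 0.25 (0.22 to 0.29), while in the AEC2s and the transitional cells (PATS) described below its ratio was 0.16 (0.11 to 0.22) and −0.07 (−0.15 to 0.02). Within AEC2s all 10 genes had a ratio above 0 and the median was 0.18, where 43.9% of all genes tested lay below 0. Within PATS 8 lay above 0 and the median was 0.33, where 54.9% of all genes lay below 0. Other epithelial groups were more mixed. Below 0 were 4 of 9 members in AEC1-gated, 3 of 10 in cycling and 4 of 10 in barcodes between the sets, against 49.7%, 45.8% and 46.6% of all genes. The medians there were 0.26, 0.09 and 0.13. The highest ratios in PATS were those of *Egr2* and *Egr3*, 1.64 and 1.96, on 1 to 20 UMIs per organoid. In the epithelium as a whole *Egr1* was at 380.5 and 398 CPM, 0.06 (0.04 to 0.09). *Nr4a3* was at 39.3 and 37.6 CPM, −0.06 (−0.14 to 0.02). *Egr3* was at 0.206 and 0.525 CPM from 16 and 30 UMIs, with a ratio of 1.35 (0.43 to 2.32). In organoid FBs *Egr3* was at 14.1 and 10.5 CPM, and *Pdgfra*, which epithelium lacks, was at 0.348 and 0.630 CPM in the epithelial barcodes against 77.6 and 73.0 CPM in FBs. The levels of *Egr3* and *Pdgfra* in epithelial barcodes were thus both under 1 CPM. Of other genes higher in organoid FBs, *Mfap5* was at 4.35 and 10.3 CPM there, *Col14a1* at 0.528 and 1.31 CPM, and *Cthrc1* at 15.3 and 12.9 CPM. The part of transcripts carried over from FBs in these values was not tested. Of 25 other early genes tested, 23 had a ratio above 0, with a median of 0.27, led by *Dusp1* (0.68), and *Nfkbiz* was the lowest (−0.05). Medians of the other lists were 0.23 over 5 other *Klf* genes (from *Klf5*, −0.04, to *Klf9*, 0.33), 0.14 over 6 partners (from *Creb1*, −0.08, to *Elk4*, 0.25) and 0.12 over 8 heat shock genes (from *Hspd1*, 0.03, to *Hspb1*, 0.53). When all barcodes of the organoid libraries were summed without a gate, the median of the 10 genes was −0.07.

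Organoid FBs differed little by donor. The FB gate held 2033 barcodes of the normal organoid, 71 of them with only the minimum of 3 markers, and 3420 of the fibrogenic organoid, 685 of them with that minimum. The median FB barcode held 50144 and 36700 UMIs. Of the 10 genes, 8 were lower in FBs of bleomycin donors and 0 passed 2-fold in either direction, where 0.799% of 8008 genes were at least 2-fold lower and 0.287% higher. The median was −0.21 against 0.01 for all genes, of which 47.8% lay below 0. *Nr4a2* was the lowest, at 89.9 and 61.3 CPM with a log2 ratio of −0.55 (−0.59 to −0.51), and *Egr1* was at 402 and 301 CPM, −0.42 (−0.44 to −0.40). *Klf4* was the highest, at 38.3 and 58.4 CPM, 0.61 (0.56 to 0.66). The remaining genes had ratios between −0.42 and 0.17. Other early genes had a median of −0.05 (from *Ier2*, −0.44, to *Fosl1*, 0.61), other *Klf* genes of −0.10 (*Klf7*, −0.26, to *Klf3*, 0.09), partners of −0.14 (*Creb1*, −0.29, to *Nab2*, 0.18) and heat shock genes of 0.23 (*Hsph1*, 0.06, to *Hspb1*, 0.53).

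Within the epithelium, the members parted AEC2s from PATS, transitional cells between AEC2 and AEC1 that carry *Cldn4*, *Sfn* and *Krt19*. The gates held 990 AEC2s and 139 PATS in the normal organoid, and 890 and 268 in the fibrogenic organoid. *Klf6* was at 411 CPM in PATS and 155 CPM in AEC2s of the normal organoid and at 393 and 173 CPM in the fibrogenic one, with log2 ratios of 1.41 (1.34 to 1.48) and 1.18 (1.11 to 1.25). *Nr4a2* was also higher in PATS, by 2.46 (2.18 to 2.73) and 2.08 (1.83 to 2.34), as were *Klf4*, by 1.73 in both, and *Klf10*, by 1.71 and 1.54. *Egr1* was at 176 and 436 CPM, and at 189 and 485 CPM, with log2 ratios of −1.31 (−1.41 to −1.21) and −1.36 (−1.45 to −1.27). *Nr4a3*, *Klf2* and *Egr2* were lower in PATS as well, with log2 ratios of −3.29 and −2.87 for *Nr4a3*, −1.73 and −1.35 for *Klf2*, and −3.21 in the normal organoid for *Egr2*, which had 5 and 20 UMIs in PATS. Members of the *Nr4a* and *Klf* families therefore lay on both sides. In the normal organoid 4 were at least 2-fold higher in PATS, against 20% of genes, and 4 at least 2-fold lower, against 10.6%. In the fibrogenic organoid 5 were higher, against 17.3%, with *Egr3* on 5 and 7 UMIs among them, and 4 lower, against 10.6%. In both organoids *Egr2* and *Egr3* had means under the 10 CPM of the background genes. The median PATS barcode of the fibrogenic organoid held 9168 UMIs, against 35704 for its AEC2s, and 39255 and 40491.5 UMIs in the normal organoid.

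**Figure D5:**
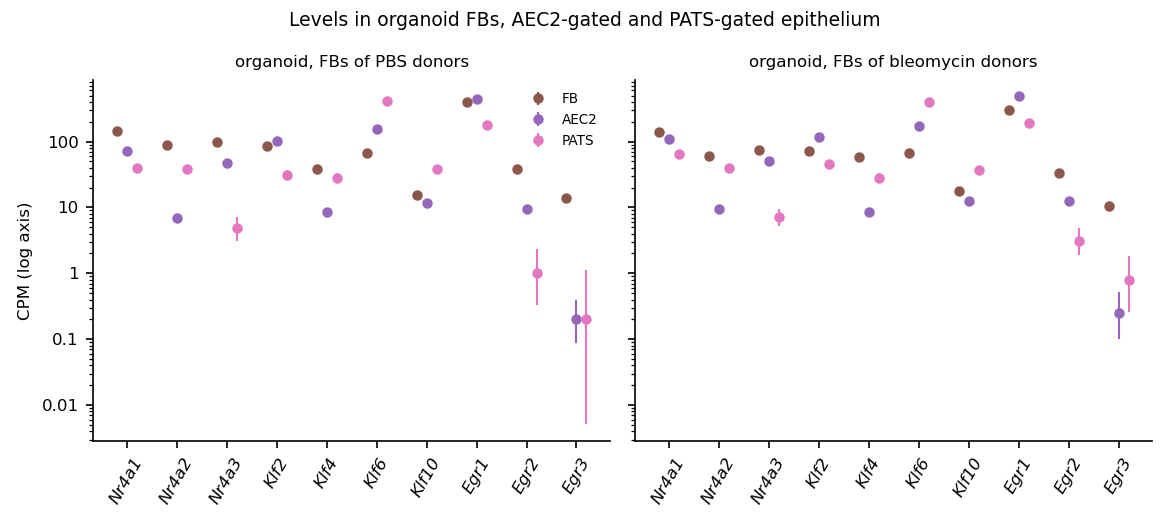
Levels of the 10 genes in FBs, AEC2s and PATS of the normal organoid (FBs of PBS donors) and the fibrogenic organoid (FBs of bleomycin donors), in CPM on a log axis, with exact 95% Poisson intervals as bars. In both, PATS lie above AEC2s for *Klf6*, *Klf10*, *Klf4* and *Nr4a2* and below them for *Nr4a3*, *Klf2*, *Egr1* and *Egr2*, and *Egr3* is above 1 CPM only in FBs.

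Across cell types, *Nr4a2* was at 89.9 CPM in FBs and 11.3 CPM in epithelium of the normal organoid, a log2 ratio of 3.00 (2.90 to 3.10), and 2.08 (1.98 to 2.19) in the fibrogenic organoid. *Egr2* was higher in FBs by 2.32 and 1.73, and *Klf4* by 1.84 and 2.42. *Klf6* was the member at least 2-fold lower in FBs in both organoids, with log2 ratios of FBs over epithelium of −1.39 (−1.43 to −1.35) and −1.67 (−1.71 to −1.63). *Egr1* and *Klf2* had ratios of 0.08 and 0.25 in the normal organoid and of −0.40 and −0.17 in the fibrogenic one. In the normal organoid 6 members were at least 2-fold higher in FBs and 1 at least 2-fold lower, against 15.2% of genes each way. In the fibrogenic organoid 4 were higher, against 14.6%, and 1 lower, against 15.5%. *Egr3*, counted as higher in both, had a mean under the 10 CPM of the background genes.

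The genes whose profile was most like each family were found over 32 library-by-cell-type groups, as Pearson correlations of log2(CPM + 1), where groups of 1 library share its depth and handling. For the mean of the *Nr4a* genes they were *Agmo* (0.88), *Nfkbiz* (0.87) and *Nfkb1* (0.86). For the *Klf* genes they were *Glul* (0.89), *Csrnp1* (0.89) and *Lepr* (0.87), and for the *Egr* genes *Fcgrt*, *Dtnbp1* and *Adam23* (each 0.88). Among the members themselves, *Nr4a1* and *Klf4* (0.79), *Klf4* and *Egr3* (0.79) and *Klf2* and *Egr3* (0.78) were most alike. *Klf6* had the profile least like the others, with correlations from −0.16 with *Egr2* to 0.41 with *Klf10*.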

How the data were processed

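The data were UMI counts per gene and barcode of 6 droplet scRNA-Seq libraries, as deposited by the authors without normalization. The study's methods name Cell Ranger 3.0.1, GRCm38 and Gencode M17, and the 10x v2 kit for GFP+ cells. The single-dose tables hold 30828 and 30830 gene rows and the other 4 hold 32285, so whether 1 annotation made all of them is not known. Members and lists were chosen with earlier results of these data known.

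Barcodes entered a lineage gate with at least 3 of 8 markers detected and every other lineage at or below 50% of that number (*Clec7a* was absent, leaving 7 myeloid markers). Removed were 44 to 822 barcodes per library, those whose mitochondrial share exceeded the median of their gate by more than 3 scaled median absolute deviations, or was above 25%, and those with above 0.5% haemoglobin counts. No doublet caller was run, and barcodes with markers of several lineages were set aside. Lipo- and MatrixFBs were parted by a rule chosen after seeing the data: at least 3 markers and at least 2 more than any other set, and MyoFBs by at least 3 including *Cthrc1*. PATS and AEC2s were parted by the same margin.

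Summed UMIs were expressed as CPM with exact 95% Poisson intervals, and compared as log2 CPM ratios with exact Clopper-Pearson intervals. Genes with a mean of at least 10 CPM over both groups were the background. A count of 0 was set to 3 counts. UMIs are molecules of pooled mice, so the intervals cover counting error only, and no p-value was computed. Named were all members, the highest and lowest gene of each list, and the 3 most similar genes to each family. Python 3.11.15, numpy 2.4.6, scipy 1.17.1 and matplotlib 3.10.9 were used. The ratio and its interval were tried on Poisson counts simulated from the FB sums of the lung pairs, with known changes in some genes. Gates, FB types, thinning and variation between cells or mice were not part of that trial. Alternatives were other marker minimums, no filter, deeper barcodes, equal weight of barcodes, pseudocounts, centring, expression minimums, no gate and FB types. Cycling FBs are not described. For epithelial barcodes that were AEC1-gated, cycling or between the sets, only medians and signs are given.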

Additional observations from a re-analysis of the deposited data

Results flagged for a closer look

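The comparisons set side by side were FBs after single and repetitive dosing, FBs and epithelium of the organoids, and LipoFBs and MatrixFBs after each dosing scheme. The members with opposite signs in such a pair and both counting intervals off 0 are listed here, and the difference was not tested in any of them, as each condition was 1 library. *Egr2* had 0.37 in FBs after the single dose and −1.47 after repetitive dosing, and *Egr3* had 0.72 and −0.77. In single-dose FBs *Egr3* also differed by FB type, with 1.27 in LipoFBs and −1.33 in MatrixFBs, on 14 to 40 UMIs each. Between organoid FBs and organoid epithelium the ratios were −0.064 and 0.40 for *Nr4a1*, −0.55 and 0.36 for *Nr4a2*, and −0.23 and 0.18 for *Klf2*. They were −0.42 and 0.064 for *Egr1*, −0.19 and 0.40 for *Egr2*, and −0.42 and 1.35 for *Egr3*, whose epithelial counts were 16 and 30 UMIs. Without a gate, where both are the same sum, *Nr4a1* and *Egr2* were at 0.12 and 0.069.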

How the results depend on the processing

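No paired analysis was possible because each condition was 1 library. For the single-dose FBs the median log2 ratio of the 10 genes (−1.03) was −0.68 with equal weight of barcodes, −0.75 with barcodes thinned to 2000 UMIs, −0.87 in the LipoFBs of the rule first set, and −1.18 and −0.86 in the LipoFBs and MatrixFBs of the added rule. The number at least 2-fold lower (6, against 4.06% of all genes) was 3 with equal weight (3.61%) and 3 after thinning (4.66%). For repetitive dosing the median (−0.93) was −1.04 with equal weight, −1.01 after centring on the median gene, −1.02 after thinning, −0.12 in the LipoFBs first set, and −0.79 and −1.31 in the LipoFBs and MatrixFBs of the added rule, and the number at least 2-fold lower (4) was 2, 2 and 8 in those 3 groups, against 2.9%, 2.13% and 1.55% of all genes. LipoFBs of the rule first set were FBs in no other set, with a median of 1600 UMIs in the repetitive bleomycin library against 8848 after PBS, and the cause of the values there was not tested. In them *Klf4* after the single dose turned to 0.68, and after repetitive dosing *Egr3*, *Klf4*, *Klf10* and *Nr4a2* were at 1.56, 0.37, 0.25 and 0.03. *Egr2* and *Egr3* after the single dose were at −0.49 and −1.33 in the MatrixFBs of the added rule. In organoid epithelium the median (0.22) was 0.14 with equal weight, 0.15 with a pseudocount of 5 CPM and −0.068 without a gate, where *Egr3* turned to −0.071, and in organoid FBs (−0.21) it was −0.068 without a gate. *Nr4a2*, *Klf2*, *Klf6* and *Egr1* in epithelium also lay below 0 without a gate, and *Egr1* did so with equal weight, at −0.14. *Klf4* in epithelium was at −0.10 with equal weight and also fell below 0 after centring, and *Nr4a3* was at 0.13 in AEC2s. In organoid FBs *Nr4a1* and *Egr2* were at 0.12 and 0.069 without a gate, and *Klf10* at −0.15 with equal weight. Without a gate the epithelium and the FBs are the same sums of all barcodes. The other 70 values of these medians and counts lay within the median bounds of the members' intervals or within 1.5 times the count given. The thinning, the added FB types and the comparison of PBS libraries were chosen after seeing the data. With a minimum mean of 1 CPM, the share of all genes at least 2-fold higher was 11.7% after the single dose (5.97%) and 9.74% after repetitive dosing (5.17%), and in the organoids it was 0.959% in epithelium and 0.793% in FBs, with 1.55% of genes lower in FBs (0.530% at 50 CPM). *Egr3* in epithelium rests on 16 and 30 UMIs.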
